A study of Mus musculus with 6 samples.

Results

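Long intergenic non-coding RNAs (lincRNAs) were described in 6 libraries labelled as mouse bone marrow-derived macrophages (BMDMs). The libraries came from a co-culture with ID8, a mouse ovarian cancer cell line. Markers of ID8 and of other cells were also found in them (below), so the cell type that expressed a lincRNA is not known. The lincRNAs were chosen by annotation, as genes of biotype lincRNA on chromosomes 1 to 19, at least 300 bases long. They were also chosen by level, with a mean of at least 2 FPKM over the 6 libraries. FPKM are fragments scaled to the length of a gene and the depth of a library. Of the 54532 genes listed, 5559 were lincRNAs, and 120 of these met the rule. Before co-culture the ID8 cells were treated either with cisplatin at 40 µM, a DNA-crosslinking platinum compound (cisplatin group, 3 libraries), or with phosphate-buffered saline (PBS group, 3 libraries). In both groups the BMDMs came from bone marrow monocytes of young adult C57BL/6 mice, the labels name no other difference between the groups, and RNA was selected with poly-T beads. A library of BMDMs alone was not analysed here. The study's methods mention biological replicates for the differential expression analysis. They do not say whether the 3 libraries of a group came from separate cultures or mice. The p-values measure the spread between these libraries, which may be technical.

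A lincRNA is transcribed by RNA polymerase II from its own promoter between protein-coding genes, and is usually capped, spliced and polyadenylated like a messenger RNA. Some act as RNA (scaffolds of nuclear bodies, decoys for proteins or miRNAs), some are precursors whose introns or exons release snoRNAs or miRNAs, and for others only the act of transcription near a neighbouring gene is known to matter. In macrophages, lincRNA genes are among the transcripts induced by interferons and by ligands of Toll-like receptors. Most are expressed at low levels and in few cell types.

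Because the rule used the mean over all 6 libraries, a lincRNA could pass it through one group alone. A mean of at least 2 FPKM was found in both groups for 78 of the 120, through the PBS group alone for 28 and through the cisplatin group alone for 14. In the 42 lincRNAs that passed through a single group the means lay on either side of the limit, which favours members that differ. A large difference was not forced, as 13 of the 42 were not called. Counts over the 120 are therefore given as a description of the list. Just inside the limit lay 1810012K08Rik, with a mean of 2.02 FPKM, and Gm13391, with 2.04. Just outside lay Gm20506 and Gm34095, with 1.98 each. Gm13391 reached the limit through the cisplatin libraries, at 2.83, 2.98 and 2.75 FPKM against 1.14, 0.955 and 1.58 in the PBS libraries.

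The sequences of some members name the molecule they carry or bind, and are shown first because the results on those members concern the whole host transcript. Mature miRNAs are not measured in poly-T libraries. In all, 4 members held a miRNA hairpin, and for 3 of them 1 mature arm of each hairpin is shown. The capitals mark the seed, bases 2 to 8, which pairs with target messenger RNAs, and the sequences are those of RefSeq on GRCm38.p6. miR-155-5p lies at chr16:84714143-84714165, plus strand, within Mir155hg. miR-101a-3p lies at chr4:101346957-101346977, minus strand, within E130102H24Rik. The others lie between chr14:115043684 and chr14:115044496, plus strand, within Mir17hg.
miR-155-5p: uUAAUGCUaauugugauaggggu
miR-101a-3p: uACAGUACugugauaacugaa
miR-17-5p: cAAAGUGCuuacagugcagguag
miR-20a-5p: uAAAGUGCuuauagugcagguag
miR-18a-5p: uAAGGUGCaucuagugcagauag
miR-19a-3p: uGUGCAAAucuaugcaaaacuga
miR-19b-3p: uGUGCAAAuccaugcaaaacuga
miR-92a-3p: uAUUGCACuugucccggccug
Within Mir17hg, miR-17-5p and miR-20a-5p shared the seed AAAGUGC, and miR-19a-3p and miR-19b-3p shared GUGCAAA.

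A pair of lincRNAs that were not called are known by a sequence that binds a regulator. 1700020I14Rik, known as Cyrano or Oip5os1, carries a long site for miR-7, and 2900097C17Rik, known as Norad, carries repeated elements for Pumilio proteins, which repress messenger RNAs. In the third of 3 exons of 1700020I14Rik, at chr2:119602137-119602161 (GRCm38, plus strand), a stretch of 25 bases faces miR-7a-5p. The capitals mark 13 bases complementary to the 3′ end of the miRNA and 8 bases complementary to its 5′ end, with 4 unpaired bases between them in lower case. The miRNA is shown with its seed in capitals.
Cyrano site: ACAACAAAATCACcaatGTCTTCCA
miR-7a-5p: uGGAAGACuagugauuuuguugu
A second match to the miR-7 seed in that transcript, at chr2:119599949-119599971, had no such pairing to the 3′ end. The Pumilio element, searched on the transcript's strand as TGTANATA, occurred 11 times in the 4915 bases of the single-exon transcript of 2900097C17Rik, or 2.24 times per kb. Over the other members it occurred 0.117 times per kb, over all lincRNA transcripts of GENCODE M21 0.125 times per kb, and 14.1% of the latter held at least 1. Neat1 had 4 in 20771 bases. The first 3 elements of 2900097C17Rik are shown with 10 bases on either side, at chr2:156392312-156392339, chr2:156391816-156391843 and chr2:156391627-156391654 on the minus strand.
Norad element 1: agaagtcctgTGTATATAatatgaaaaa
Norad element 2: gtaaacatgcTGTAAATAcctttttgtt
Norad element 3: ggcttttcttTGTACATAgtgtatgtaa

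The lincRNAs were mostly scarce. Mean levels ran from 2.02 to 297.7 FPKM with a median of 3.31, and 82 of the 120 (68.3%) were under 5 FPKM. Only Gm26917, Malat1, AW112010 and Gm26809 reached 100 FPKM, and 20 reached 10 FPKM. Gene lengths ran from 325 to 20771 bases with a median of 1397. The deposited values could be turned back into whole reads, and a median of 83.5 reads per library lay behind a member, with fewer than 50 for 33 of them. The 6 libraries held 15776238 to 17924686 reads on genes. The 120 lincRNAs took 0.516% to 0.573% of them in the cisplatin group and 0.534% to 0.554% in the PBS group, and these ranges overlapped. Without Gm26917 the shares were 0.338% to 0.380% in the former and 0.521% to 0.539% in the latter, and the groups lay apart.

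Of the 120 lincRNAs, 11 (9.17%) were called higher in the cisplatin group and 28 (23.3%) lower, where 4.67% and 11.3% of the 13441 genes tested were called. Calls needed an adjusted p under 0.05 in limma, with Benjamini-Hochberg adjustment over all 13441 genes, together with a change of 1 or more, up or down, on the log2(FPKM + 1) scale. That scale understates the changes of scarce genes. The median log2 fold change of the 120, cisplatin minus PBS, was -0.07 against -0.001 over all genes tested. Values ran from -3.18 to 3.77, with 55 lincRNAs above 0 and 65 below. In 80 lincRNAs (66.7%) the 3 cisplatin values did not overlap the 3 PBS values, as for 72.4% of all genes tested. Of the 78 lincRNAs at 2 FPKM or more in both groups, 2 were called higher (2.56%) and 8 lower (10.3%), and of the 42 that passed through a single group 9 were called higher and 20 lower. The change itself helps to decide which of these sets a lincRNA falls into, and the genes tested met no such limit in both groups. Neither share can therefore be read against theirs.

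**Figure D1:**
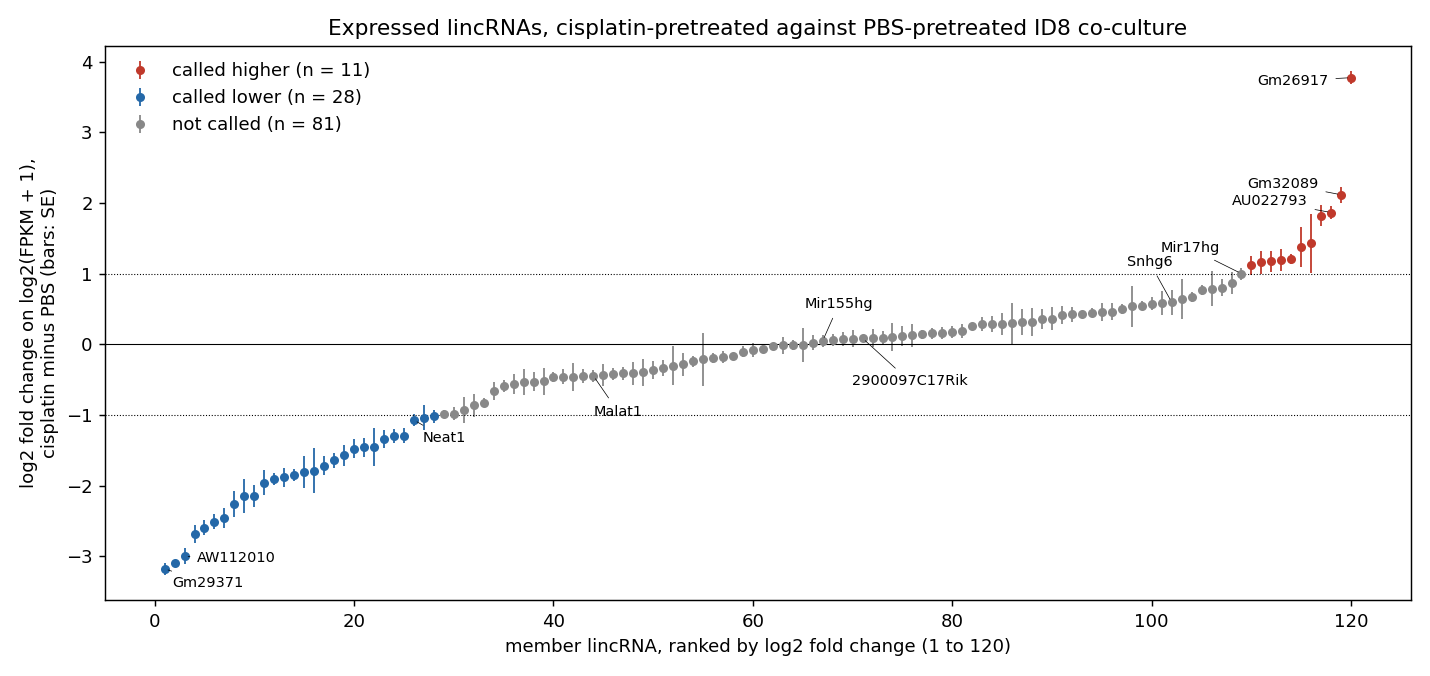
Log2 fold change (vertical axis, cisplatin minus PBS on log2(FPKM + 1), bars are SE) of the 120 lincRNAs ranked from lowest to highest (horizontal axis), with dotted lines at 1 and -1. The 28 called lower reach -3.18 (Gm29371), and of the 11 called higher 9 lie between 1.12 and 1.86, Gm32089 at 2.12 and Gm26917 at 3.77.

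**Figure D2:**
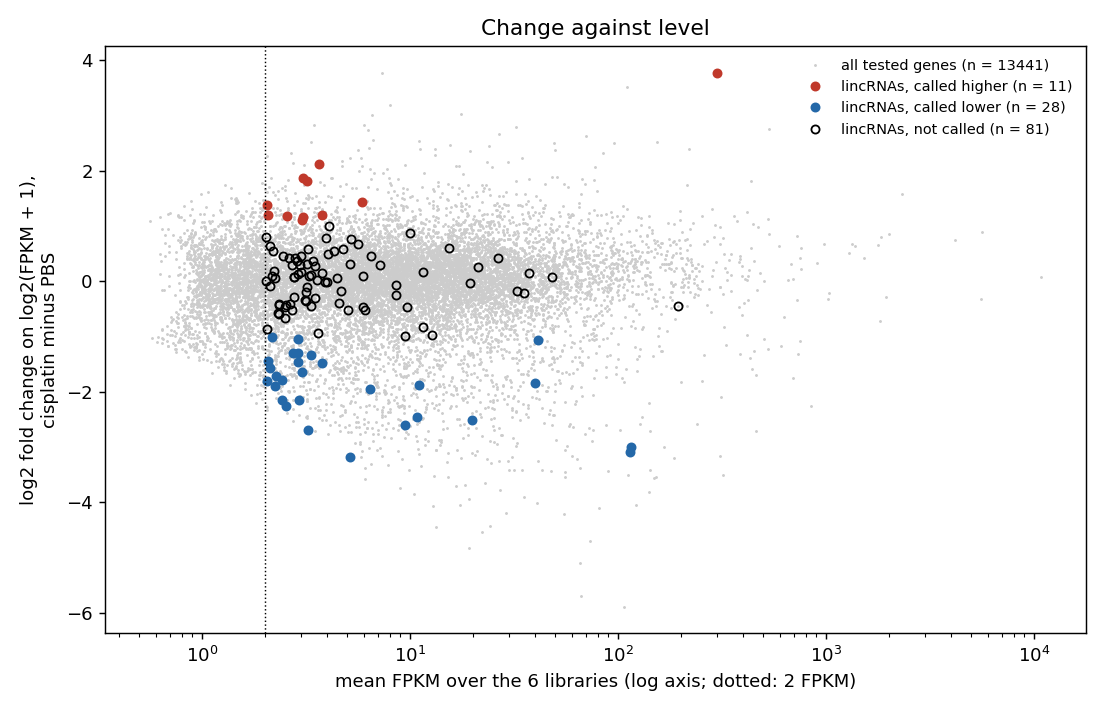
Log2 fold change (vertical axis) against the mean FPKM over 6 libraries (log axis) for the 13441 genes tested (grey) and the 120 lincRNAs, with the limit of 2 FPKM dotted. Most called lincRNAs lie under 10 FPKM, and 7 of the 20 at or above 10 FPKM were called lower and 1 higher.

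The largest falls in FPKM were in a few abundant members. As FPKM is per length, this order is not one of reads. Gm26809, AW112010, Malat1, 4930461G14Rik and Neat1 had the largest differences in FPKM, at 183 for Gm26809 and 181 for AW112010 between the PBS and cisplatin means. Together these 5 summed to 738 to 778 FPKM in the PBS libraries and 237 to 278.6 FPKM in the cisplatin libraries. The other lincRNAs, Gm26917 left out, summed to 730 to 753 FPKM and 608 to 633 FPKM. In bulk RNA of this kind, fewer cells of a type and less RNA per cell cannot be told apart.

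Most lists of cell type markers also differed between the groups. The 10 macrophage markers were higher in every cisplatin library, with summed levels of 4290 to 4455 FPKM against 1694 to 1704 FPKM, and 4 of them were called higher. Of 12 markers of ID8 and mesothelial cells, 9 were lower in every cisplatin library and 7 were called lower, with sums of 178 to 192 FPKM against 1008 to 1086 FPKM. In that list Epcam, Lrrn4, Muc16 and Krt7 were under 1 FPKM in all 6 libraries. The 4 B cell markers (432 to 442 FPKM against 188 to 195 FPKM) were also higher in every cisplatin library, as were 4 of the 5 neutrophil markers, whose sum over the 5 was 3444 to 3523 FPKM against 1618 to 1803 FPKM. The 5 T cell markers summed to 11.3 to 11.9 FPKM against 6.79 to 7.34 FPKM. Of these Cd3d, Cd3e and Cd3g were under 1 FPKM in all libraries, Trac was near 2 FPKM in both groups, and Cd2 was at 7.13 to 7.94 FPKM against 3.51 to 4.07 FPKM (log2 fold change 0.82, limma adjusted p = 4.34e-05, not called). The 4 erythroid markers overlapped between the groups, with sums of 58.9 to 66.5 FPKM against 58.1 to 60.1 FPKM and none called. Xist, the RNA that coats the inactive X chromosome, was at 7.57 to 7.94 FPKM in the cisplatin group and 39.0 to 48.8 FPKM in the PBS group, and 4 Y-linked genes summed to 41.6 to 42.8 FPKM and 19.5 to 22.7 FPKM. The part of these shifts in the changes of the lincRNAs was not tested beyond a scaling by the 4 Y-linked genes. Under that scaling the median log2 fold change of all genes tested was -0.83, and lincRNAs are given below relative to it where their sign turned.

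Among lincRNAs linked to macrophage inflammation and interferon, 3 of the 6 members were called lower (AW112010, Gm12840 and Neat1), none higher. Of the whole list, 10 genes were tested, of which 4 were called lower and none higher (11.3% and 4.67% over all genes tested), and their median log2 fold change was -0.81 against -0.001 over all genes tested. AW112010, a transcript that interferon-γ and bacterial ligands induce in mouse macrophages and that also encodes a small protein, was the third most abundant lincRNA. It lies at chr19:11047617-11050566 (GRCm38, minus strand), overlaps no other gene and has 3 exons. AW112010 was at 29.9, 22.2 and 23.1 FPKM in the cisplatin libraries and at 194.0, 221 and 203 FPKM in the PBS libraries. The highest cisplatin library was far under the lowest PBS library, and the mean was 25.1 ± 4.17 against 206 ± 13.9 FPKM (SD, n = 3 each). The log2 fold change of AW112010 was -3.0 (SE 0.11, limma adjusted p = 9.25e-07). A mean of 2572 reads per library lay behind the PBS value and 322 behind the cisplatin mean.

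Gm12840 (chr4:117700188-117700923, plus strand, 2 exons) was at 0.188, 0.291 and 0.290 FPKM in the cisplatin libraries and at 5.86, 4.51 and 3.5 FPKM in the PBS libraries. The log2 fold change of Gm12840 was -2.14 (SE 0.16, limma adjusted p = 2.36e-05), and a mean of only 2.67 reads lay behind the cisplatin value. Dmap1, a subunit of chromatin-remodelling complexes and its nearest protein-coding gene at 17915 bases, had a log2 fold change of 0.24 and was not called. Mirt1, named for its rise after myocardial infarction, was at 5.80, 5.90 and 6.42 FPKM against 12.6, 13.7 and 12.4 FPKM. The groups lay apart, but the log2 fold change of -0.98 (SE 0.06, limma adjusted p = 9.14e-06) was just under the size needed for a call. It passed under TPM rescaling (-1.07), limma voom (-1.01), a pseudocount of 0.1 (-1.08) and scaling by the Y-linked genes (-1.87), and without PBS replicate 3 (-1.01) or cisplatin replicate 3 (-1.02). Gm14005, known as Morrbid, which restrains Bcl2l11 in short-lived myeloid cells, was at 3.5, 3.59 and 3.76 FPKM against 2.42, 2.48 and 2.25 FPKM. That of Gm14005 on the log2 scale was 0.45 (SE 0.06, limma adjusted p = 0.000705) and -0.29 under scaling by the Y-linked genes, where it stayed above the median of all genes. Bcl2l11, a death-inducing gene 15772 bases from Gm14005, was at 13 ± 0.149 FPKM against 14.3 ± 0.711 FPKM, a log2 fold change of -0.13. Mir155hg, host of miR-155, which is induced by inflammatory signals, was at 3.86, 4.97 and 4.82 FPKM against 4.22, 4.48 and 4.32 FPKM. These groups overlapped, and the log2 fold change of 0.05 (SE 0.09, limma adjusted p = 0.642) turned to -0.76 under scaling by the Y-linked genes and to -0.01 without cisplatin replicate 2. The former lies slightly above the median of -0.83 over all genes under that scaling.

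A list of lincRNAs known for roles in nuclear structure, chromatin or the binding of regulators held 5 members, of which only Neat1 was called. Of these, 2900097C17Rik and 1700020I14Rik are known to act mainly in the cytoplasm. Over that list, 7 genes were tested, with 1 called lower and none higher, beside 11.3% and 4.67% of all genes tested. Neat1, the scaffold of paraspeckles, was at 23.2, 27.9 and 27.9 FPKM in the cisplatin libraries and at 60.9, 53.0 and 55.1 FPKM in the PBS libraries. Its mean was 26.3 ± 2.72 FPKM against 56.4 ± 4.11 FPKM (SD, n = 3 each), with no overlap. The log2 fold change of Neat1 was -1.07 (SE 0.09, limma adjusted p = 3.61e-05), and without cisplatin replicate 1 it was -0.99, short of a call. Malat1, of nuclear speckles, lies 22036 bases from Neat1 and was at 144, 166 and 186 FPKM against 225, 219 and 230.1 FPKM. The groups did not overlap, and its log2 fold change was -0.45 (SE 0.09, limma adjusted p = 0.00355), under the size needed for a call. The difference of the means was 59.0 FPKM for Malat1 and 30 FPKM for Neat1, while the log2 fold change was the larger for Neat1, and the difference between these log2 fold changes was not tested. Frmd8, the protein-coding gene nearest to Neat1 at 4224 bases, was at 21.1 ± 0.338 FPKM against 36.5 ± 0.194 FPKM, a log2 fold change of -0.76 (SE 0.03).

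The RNAs with the miR-7 site and the Pumilio elements shown above differed by little in log2 fold change, and neither was called. 2900097C17Rik, the fifth most abundant lincRNA, was at 50.8, 49.7 and 48.9 FPKM in the cisplatin libraries and at 48.0, 47.2 and 45.4 FPKM in the PBS libraries. The groups did not overlap, by a narrow margin, and the log2 fold change was 0.09 (SE 0.04, limma adjusted p = 0.0713). For 2900097C17Rik it was 0.17 with limma voom (adjusted p = 0.00134) and 0.16 under quantile normalisation (limma adjusted p = 0.0105). Under median-of-ratios scaling it was 0.0985 (limma adjusted p = 0.0473). All were too small for a call, and apart from scaling by the Y-linked genes the other settings gave an adjusted p above 0.05. 1700020I14Rik was at 24.5, 22.4 and 23.0 FPKM against 18.7, 20.1 and 19.2 FPKM, a log2 fold change of 0.26 (SE 0.05, limma adjusted p = 0.00253) that was too small for a call. Under scaling by the Y-linked genes these log2 fold changes were -0.89 for 2900097C17Rik and -0.69 for 1700020I14Rik, close to the median of all genes. Bvht (Braveheart), known from heart development, was at 0.757, 1.57 and 1.21 FPKM against 2.83, 2.57 and 3.41 FPKM, with 13.7 reads per library behind the cisplatin mean. Its log2 fold change was -0.87 (SE 0.16, limma adjusted p = 0.00227), and it was called under TPM rescaling (-1.17), limma voom (-1.25), a pseudocount of 0.1 (-1.29) and scaling by the Y-linked genes (-1.5).

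Hosts of small RNAs mostly had positive log2 fold changes, and few were called. The snoRNA hosts are genes whose introns release the guide RNAs of rRNA modification while the spliced transcript is often degraded. All 4 members of that list had positive log2 fold changes, and none was called. Of the list of 21, 15 were tested, 3 were called higher, 1 was called lower, 14 were above 0, and the median was 0.60. Of all 13441 genes tested, 4.67% were called higher and 11.3% lower, and 6707 were above 0. Under scaling by the Y-linked genes each of the 4 members turned below 0, while all stayed above the shifted median of all genes. Snhg6 was at 15, 21.1 and 20.1 FPKM against 10.4, 10.7 and 15.2 FPKM, so that the lowest cisplatin library was under the highest PBS library. Its log2 fold change was 0.60 (SE 0.17, limma adjusted p = 0.0195) and -0.34 under that scaling. Snhg12, host of Snora16a, Snora44, Snora61 and Snord99, was at 3.94, 4.41 and 3.88 FPKM against 2.68, 2.03 and 2.52 FPKM. The groups of Snhg12 lay apart, with a log2 fold change of 0.58 (SE 0.09, limma adjusted p = 0.0013) and -0.18 under the scaling. Snhg20 was at 2.48, 4.18 and 3.51 FPKM against 2.95, 2.16 and 2.56 FPKM, with overlap, a log2 fold change of 0.29 (limma adjusted p = 0.146) and -0.45 under the scaling.

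Epb41l4aos, a snoRNA host that lies 341 bases from a protein-coding gene on the opposite strand, went against its neighbour. It was at 12, 13.9 and 13.4 FPKM in the cisplatin libraries and at 6.96, 5.08 and 8.40 FPKM in the PBS libraries, a log2 fold change of 0.87 (SE 0.15, limma adjusted p = 0.00197) and -0.03 under scaling by the Y-linked genes. It was called with limma voom (1.05) and without PBS replicate 3 (1.02). Epb41l4a, a band 4.1 family gene that links membrane and cytoskeleton, was at 1.19 ± 0.180 FPKM against 9.12 ± 0.547 FPKM and was called lower, with a log2 fold change of -2.21 (SE 0.08). Use of strand in counting is not stated, but the gene bodies of this pair do not overlap.

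Of the list of miRNA hosts, Mir17hg and Mir155hg were members, and E130102H24Rik and Snhg20 also hold a hairpin. Mir17hg, the precursor of the miR-17-92 cluster, which promotes proliferation, was at 6.32, 5.2 and 5.79 FPKM in the cisplatin libraries and at 2.54, 2.45 and 2.15 FPKM in the PBS libraries. The lowest cisplatin library was above the highest PBS library, and the mean was 5.77 ± 0.559 against 2.38 ± 0.204 FPKM (SD, n = 3 each). Its log2 fold change of 0.9999 (SE 0.08, limma adjusted p = 4.75e-05) missed the limit of 1 by its last digits. It was 1.03 without PBS replicate 1, 1.02 without PBS replicate 2 and 1.06 without cisplatin replicate 2, each past the limit, and 0.95 without PBS replicate 3, 0.94 without cisplatin replicate 1 and 0.9962 without cisplatin replicate 3. It also passed under TPM rescaling (1.17), limma voom (1.36), median-of-ratios scaling (1.01), a pseudocount of 0.1 (1.24) and quantile normalisation (1.13). Under scaling by the Y-linked genes it was 0.22, against the median of -0.83 over all genes. Of the list of miRNA hosts 5 were tested, with 1 called higher, none lower, and all 5 above 0. Beside these, 4.67% of all 13441 genes tested were called higher and 11.3% lower, and 6707 were above 0. E130102H24Rik, named here after its values were seen because it holds the miR-101a hairpin, was at 1.47, 1.79 and 1.12 FPKM against 5.72, 4.41 and 5.48 FPKM and was called lower (log2 fold change -1.34, SE 0.13, limma adjusted p = 9.74e-05). It overlaps 0610043K17Rik, and without stated use of strand the value is less certain. The log2 fold change was thus 0.05 for the host of miR-155, 0.9999 for that of miR-17 and miR-20a and -1.34 for that of miR-101a. The mature miRNAs themselves were not measured.

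**Figure D3:**
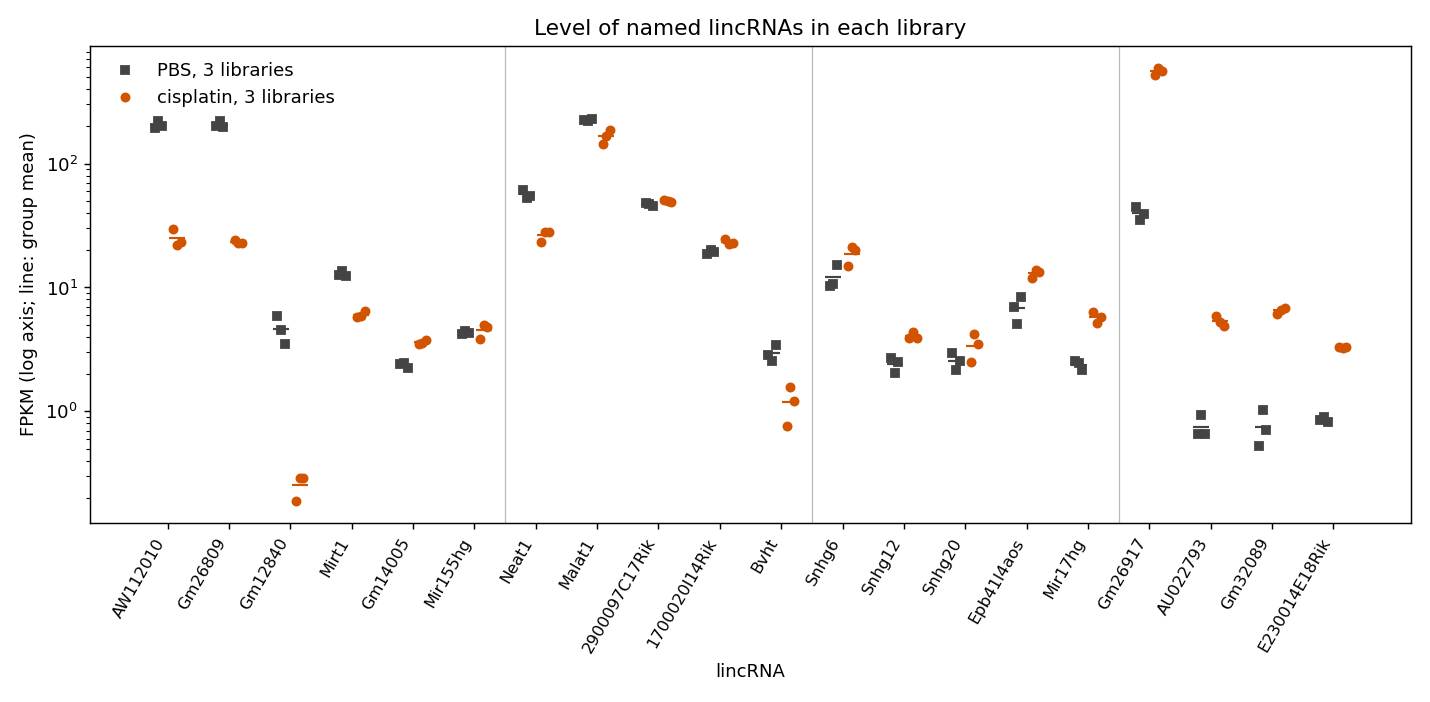
FPKM in each library (log axis) of 20 named lincRNAs, PBS libraries as squares and cisplatin libraries as circles, with the group mean as a line; vertical lines part the inflammation and interferon group with Gm26809, the list with Neat1 and Malat1, the small RNA hosts and the members called higher. AW112010 and Gm26809 fall from about 206 FPKM to 25.1 and 23.3 FPKM, while 2900097C17Rik is at 45.4 to 50.8 FPKM in all 6 libraries.

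Most of the largest falls were in lincRNAs known only by a predicted-gene or clone symbol. Gm29371 had the largest on the log2(FPKM + 1) scale, at 0.199, 0.275 and 0.205 FPKM in the cisplatin libraries and 11.4, 9.43 and 9.55 FPKM in the PBS libraries (log2 fold change -3.18, SE 0.09, limma adjusted p = 2.67e-07). Only 3.33 reads per library lay behind its cisplatin mean. Gm29371 overlaps Alppl2, an alkaline phosphatase of germ and embryonic cells, on the other strand, and Alppl2 was itself called lower (log2 fold change -1.29) from a PBS mean of 1.48 ± 0.125 FPKM. Gm26809 (chr6:18844220-18847360, plus strand) matched AW112010 in level and fall, at 24.1, 22.9 and 22.7 FPKM against 202, 219.9 and 198 FPKM. Its log2 fold change of -3.09 (SE 0.05, limma adjusted p = 6e-08) rested on means of 1154 reads per cisplatin library and 9993 per PBS library. Gm20186, which overlaps Gm26809 on the minus strand and was named after its values were seen, was at 4.82, 4.64 and 3.17 FPKM against 17.9, 16.7 and 19.4 FPKM and was also called lower. Use of strand is not stated, so the values of this overlapping pair are less certain. Lsm8, a subunit of the ring that binds U6 RNA, starts within 1 kb of Gm20186 in the other direction. It was level, at 5.67 ± 0.106 FPKM against 6.08 ± 0.0869 FPKM (log2 fold change -0.08).

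The remaining falls of the first 10 ran from -2.14 to -2.68. Gm12505 was at 0.0777, 0.241 and 0.0800 FPKM against 7.24, 5.09 and 6.64 FPKM (log2 fold change -2.68, SE 0.13), with 1.67 reads per library behind the cisplatin mean. In limma voom on the recovered reads Gm12505 had the larger fall, at -5.24 against -5.21 for Gm29371. AI427809 was at 1.86, 2.16 and 1.84 FPKM against 16.6, 19.5 and 14.7 FPKM (-2.60, SE 0.10). G930009F23Rik was at 6.28, 5.10 and 4.42 FPKM against 34.7, 36.4 and 32.3 FPKM (-2.51, SE 0.11). In these 3 the groups lay far apart and no PBS library was under 5 FPKM. Azin1, an inhibitor of the protein that destroys ornithine decarboxylase, lies 32293 bases from G930009F23Rik and was not lower, at 39.6 ± 2.27 FPKM against 32.1 ± 1.41 FPKM. Gm36535 was at 2.29, 3.27 and 2.36 FPKM against 16.2, 22.8 and 18.1 FPKM (-2.46, SE 0.15). Gm44169 was at 0, 0.509 and 0.169 FPKM against 3.93, 5.72 and 4.85 FPKM (-2.26, SE 0.18), which is a mean of 1.33 reads in the cisplatin libraries. Gm20442 was at 0.359, 0.371 and 0.492 FPKM against 5.97, 7.31 and 3.15 FPKM (-2.14, SE 0.24), and its PBS libraries spread more than those of the others.

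Further called falls were spread over the range from -1.02 to -1.96, and none of these groups overlapped. 4930461G14Rik, named after its values were seen as the most abundant of them besides Neat1, was at 16.4, 15.6 and 18.5 FPKM against 57.2, 65.5 and 67.1 FPKM (-1.85, SE 0.08). Halr1, a lincRNA of the Hoxa cluster that is induced by retinoic acid, was at 0.420, 0.869 and 0.432 FPKM against 3.05, 4.12 and 3.81 FPKM. It was likewise named after its values were seen. The falls close to the limit were the least stable. 5033406O09Rik (-1.04) and Gm11110 (-1.02) lost their calls under quantile normalisation, 5033406O09Rik also without PBS replicate 2, PBS replicate 3 or cisplatin replicate 2, and Gm11110 also without PBS replicate 3 or cisplatin replicate 1.

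Among the 11 lincRNAs called higher, Gm26917 stood apart. It was at 514, 595 and 558 FPKM in the cisplatin libraries and at 44.8, 35.2 and 39.5 FPKM in the PBS libraries, a 13.9-fold difference of the means. On the log2 scale Gm26917 differed by 3.77 (SE 0.09, limma adjusted p = 1.71e-07), and 30764 reads per library lay behind the cisplatin mean. Gm26917 (chr17:39843013-39846341, plus strand) lies beside CT010467.1, an rRNA gene at chr17:39846353-39848827, in a stretch that resembles the 45S rRNA precursor and has near-identical copies, so its reads are uncertain. CT010467.1 was at 68.9, 101 and 118 FPKM in the cisplatin libraries and 56.2, 36.8 and 62.8 FPKM in the PBS libraries, a log2 fold change of 0.87 (SE 0.25, limma adjusted p = 0.0184) that was not called. Gm42418 and AY036118, other lincRNAs of the same stretch, were listed at 0 in all libraries. Poly-T selection is meant to remove rRNA, and how much rRNA each library kept was not tested.

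The other 10 rises started from low levels. Gm32089 was at 6.11, 6.64 and 6.85 FPKM in the cisplatin libraries and at 0.521, 1.02 and 0.703 FPKM in the PBS libraries (log2 fold change 2.12, SE 0.11, limma adjusted p = 5.61e-06). AU022793 was at 5.85, 5.31 and 4.93 FPKM against 0.657, 0.932 and 0.656 FPKM (1.86, SE 0.10). Gm28187, a single-exon gene, was at 5.51, 5.31 and 5.70 FPKM against 1.03, 1.11 and 0.453 FPKM (1.82, SE 0.15). In these 3 every cisplatin library exceeded 4 FPKM and the PBS libraries lay near or below 1 FPKM. Among the rises E230014E18Rik varied least within groups, at 3.29, 3.26 and 3.31 FPKM against 0.855, 0.897 and 0.826 FPKM (1.21, SE 0.07). 2700038G22Rik, which holds Snord93, was at 4.61, 4.81 and 4.37 FPKM against 1.38, 2.22 and 1.05 FPKM (1.16, SE 0.16). C130083M11Rik was at 4.14, 3.5 and 4.12 FPKM against 0.9, 0.992 and 1.71 FPKM (1.18, SE 0.15), and Gm34084 at 4.17, 6.76 and 6.16 FPKM against 1.74, 1.88 and 2.04 FPKM (1.19, SE 0.15).

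The last rises were the noisiest. Gm43351 was at 1.62, 4.30 and 4.46 FPKM against 0.520, 0.591 and 0.791 FPKM (1.38, SE 0.28), with a mean of 3.33 reads in the PBS libraries. Gm28901 was at 7.69, 4.11 and 16.1 FPKM against 1.79, 2.17 and 3.40 FPKM (1.43, SE 0.42, limma adjusted p = 0.02). Its call was lost without cisplatin replicate 3 (log2 fold change 0.98), PBS replicate 1 (adjusted p = 0.0636) or PBS replicate 2 (adjusted p = 0.0562), and with no filter on low values (adjusted p = 0.0588). Under scaling by the Y-linked genes 4 of the 11 remained called, namely Gm26917, Gm32089, AU022793 and Gm28187.

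**Figure D4:**
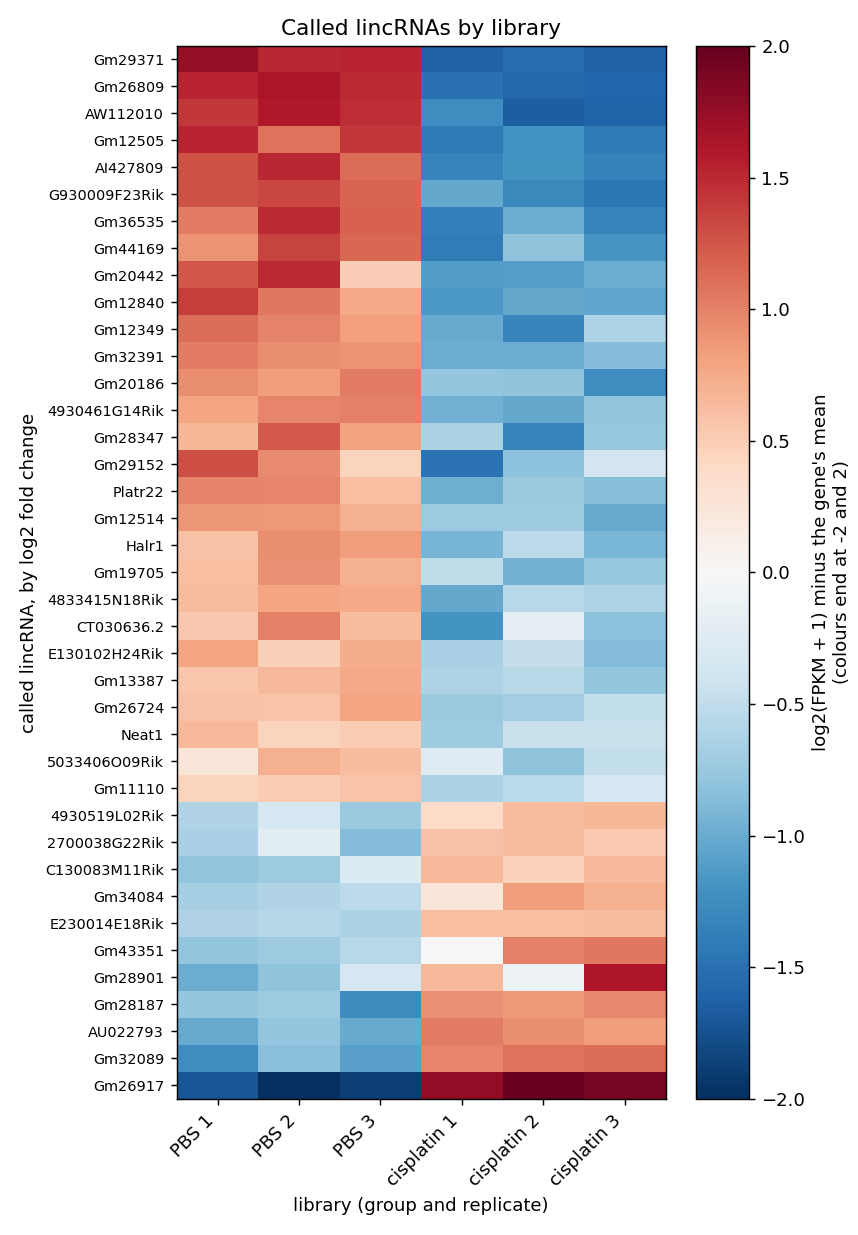
Each called lincRNA (rows, from the largest fall to the largest rise) in each library (columns), coloured by log2(FPKM + 1) minus the gene's mean over the 6 libraries; colours end at -2 and 2. In the 28 falls all PBS libraries are above all cisplatin libraries and in the 11 rises the reverse, and Gm28901 shows one strong cisplatin library (16.1 FPKM) beside weaker ones.

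Position along the genome was compared next, as lincRNAs are often read together with the gene beside them. Within 50 kb, 89 of the 120 had a tested protein-coding gene, 87 distinct ones in all. Across these pairs the log2 fold changes of lincRNA and nearest protein-coding gene had a Pearson r of 0.40 and a Spearman rho of 0.40, as a description over genes that share the same 6 libraries. For the 80 that did not overlap the neighbour, r was 0.37 and rho 0.36. Of 20 neighbours of lincRNAs called lower, 7 were called lower and none higher, and 15 were below 0, with a median log2 fold change of -0.43. Over all tested protein-coding genes, 12% were called lower and 4.16% higher. Of 5 neighbours of lincRNAs called higher, 1 was called higher and none lower, and all 5 were above 0, with a median of 0.41. Of 64 neighbours of lincRNAs not called, 12 were called. Of the 12 lincRNAs that start within 1 kb of the neighbour in the other direction, 7 shared its sign.

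In the pairs described next, lincRNA and neighbour were called in the same direction. Ddr1, a collagen receptor of epithelial cells 38702 bases from Gm20442, was at 6.64 ± 0.853 FPKM against 47.0 ± 2.79 FPKM (log2 fold change -2.66, SE 0.09). Rad23b, a factor of nucleotide excision repair 18206 bases from Gm12505, was at 54.2 ± 0.676 FPKM against 146 ± 4.37 FPKM (-1.42, SE 0.03). Lrp12, a low-density lipoprotein receptor relative 18655 bases from AU022793, was at 21.6 ± 0.849 FPKM against 5.80 ± 0.516 FPKM (1.73, SE 0.07) and was the neighbour called higher. The next neighbours were named after their values were seen. Atp1b1, a subunit of the sodium pump 4087 bases from Gm32391, was at 38.1 ± 0.719 FPKM against 118 ± 3.39 FPKM (-1.60, SE 0.04). Zfp462, a zinc finger gene 47645 bases from Gm12514, was at 1.90 ± 0.122 FPKM against 13 ± 1.02 FPKM (-2.27, SE 0.07). Tnfsf9, the ligand of the co-stimulatory receptor 4-1BB, overlaps the start of Gm11110 and was at 6.15 ± 0.612 FPKM against 13.9 ± 1.22 FPKM (-1.06, SE 0.09). As use of strand is not stated, the values of this overlapping pair are less certain, and Gm11110 lost its call in some settings.

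The neighbours of other lincRNAs called higher were above 0 but not called. Scamp1, a membrane trafficking gene 3591 bases from Gm32089, had a log2 fold change of 0.24, and Ckap4, an endoplasmic reticulum protein 3035 bases from E230014E18Rik, one of 0.49. Tomm7, of the mitochondrial import pore, lies 6436 bases from 2700038G22Rik and was at 20 ± 3.74 FPKM against 17.3 ± 4.02 FPKM (log2 fold change 0.21, limma adjusted p = 0.364). Dhx15, an RNA helicase 9470 bases from C130083M11Rik, had a log2 fold change of 0.41.

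**Figure D5:**
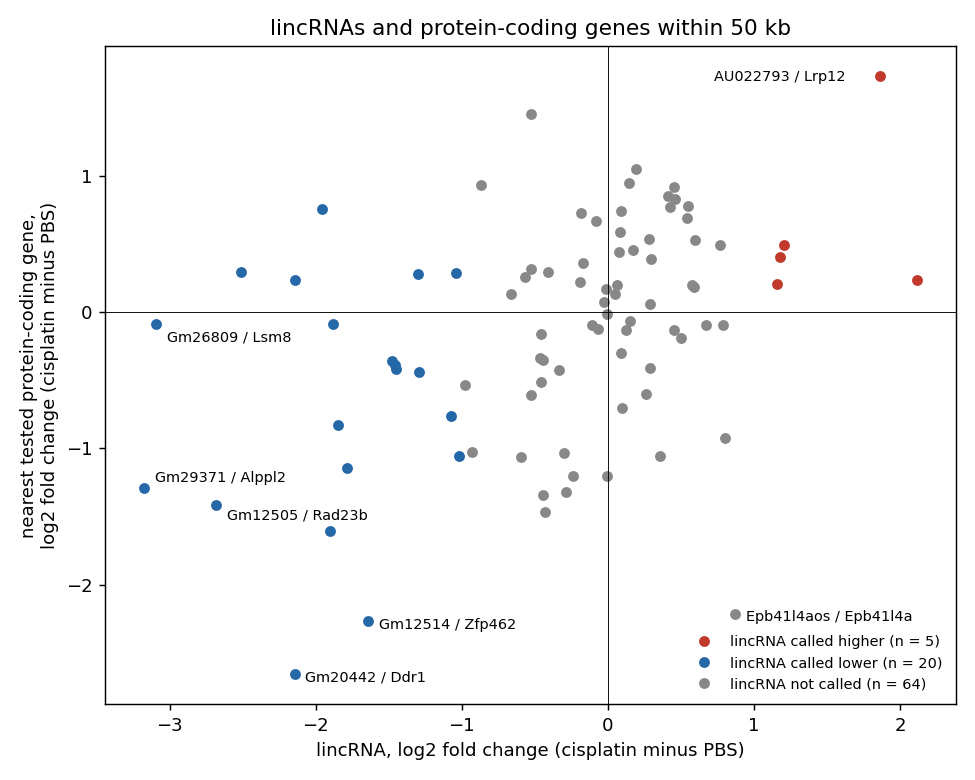
Log2 fold change of the nearest tested protein-coding gene (vertical axis) against that of the lincRNA (horizontal axis) for 89 lincRNAs with such a gene within 50 kb, coloured by the lincRNA's call. Gm20442 with Ddr1 (-2.14 and -2.66) lies low on the left, AU022793 with Lrp12 (1.86 and 1.73) high on the right, while Gm26809 fell by 3.09 beside a level Lsm8.

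Members also lay near each other. Of 12 pairs of lincRNAs within 100 kb, 10 had the same sign and in 3 both were called, all lower. The pairs called were AW112010 with Gm28347 (9982 bases apart), Gm19705 with Platr22 (5407 bases apart) and Gm26809 with Gm20186 (overlapping). Of the 120 lincRNAs, 23.3% were called lower and 65 were below 0, and 11.3% of all genes tested were called lower. Pairs drawn without regard to position were not counted. Some of the 12 pairs overlap, and as use of strand is not stated these may share reads. Gm28347 was at 0.616, 0 and 0.476 FPKM against 2.96, 4.87 and 3.38 FPKM, beside the far more abundant AW112010. Gm19705 was at 1.96, 1.17 and 1.48 FPKM against 5.37, 6.88 and 5.88 FPKM, and Platr22 at 0.400, 0.640 and 0.524 FPKM against 4.47, 4.41 and 3.19 FPKM. The pairs of opposite sign were AC129328.1 (log2 fold change -0.37) with Gm6712 (0.32), 28380 bases apart, and Mirt1 with 4833407H14Rik, which lies within the body of Mirt1 on the other strand. None of these 4 was called. Where Mirt1 was lower, 4833407H14Rik was at 32.4, 29.2 and 29.7 FPKM against 22.0, 22.7 and 22.3 FPKM, a log2 fold change of 0.43 (SE 0.05, limma adjusted p = 0.000192) that was not called. These pairs were named after their values were seen.

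Promoter sequence was available for part of the list. RefSeq (GRCm38.p6) gave a window of 250 bases before to 50 after the start for 64 of the 120, and in 43 that start lay within 500 bases of the 5′ end in the deposited table. Both strands were searched for a core of the interferon response element (GAAANNGAA), the AP-1 site (TGANTCA), a PU.1 site (GAGGAAGT) and an E-box (CACGTG). The interferon core was in 6.98% of the 43 windows and in 7.96% of all 16739 windows held to the same limit. The AP-1 site was in 14% against 7.02%, the PU.1 site in 9.30% against 3.37%, and the E-box in 4.65% against 8.29%. All members were tested genes, and over the 8246 windows of tested genes the shares differed somewhat. They were 7.68% for the interferon core, 5.0% for AP-1, 3.66% for PU.1 and 10.6% for the E-box. The shares of the 43 are of 3, 6, 4 and 2 windows in the order interferon core, AP-1, PU.1 and E-box, and are a description. The window of AW112010 held none of the 4. Among lincRNAs called lower, 8 had a window, of which 1 held the interferon core (Gm12505) and 2 the AP-1 site. Sites are shown for Gm12505 and for Mirt1 and 4833407H14Rik, an overlapping pair of opposite sign, with the match in capitals and 10 bases on either side. They lie at chr4:55418912-55418940 (minus strand), chr19:53464920-53464946 and chr19:53464886-53464913 (minus strand), and chr19:53460414-53460442 and chr19:53460537-53460564 (plus strand), in that order.
Gm12505 interferon core: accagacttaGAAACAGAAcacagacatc
Mirt1 AP-1: ccccagcaggTGACTCAgcaggcccaa
Mirt1 PU.1: cctctagtaaGAGGAAGTggggtgctca
4833407H14Rik interferon core: ccccttggacTTCAGTTTCatggccaata
4833407H14Rik PU.1: ctttcaccaaACTTCCTCctcagaagcc
The 3 members with the interferon core had log2 fold changes of -2.68 (Gm12505), -0.98 (Gm36161, named after its values were seen) and 0.43 (4833407H14Rik), and only the first was called. PU.1, encoded by Spi1, is the factor that specifies macrophages, and its site was in the windows of both Mirt1 and 4833407H14Rik.

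Calls were also counted by gene structure. All 120 were found in GENCODE M21, 116 at the same coordinates. The shares over all genes tested were 4.67% called higher and 11.3% lower. Of the 73 lincRNAs that overlapped no gene 7 were called higher (9.59%) and 20 lower (27.4%), and of the 47 that overlapped one 4 were called higher (8.51%) and 8 lower (17%). Of the 12 with a single exon, 1 was called higher (8.33%) and none lower, and of the 108 with more exons 10 were called higher (9.26%) and 28 lower (25.9%). Gm10076, a single-exon member of 384 bases named after its values were seen, varied widely, at 24.8, 42.5 and 27.0 FPKM against 30.2, 23.4 and 63.1 FPKM (log2 fold change -0.21, SE 0.37). In contrast 1810058I24Rik, likewise named, was at 19.7, 19.2 and 19.1 FPKM against 19.8, 19.7 and 19.5 FPKM (-0.02, SE 0.03). None of the 8 imprinted transcripts listed was a member.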

How the data were processed

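RNA-seq was analysed in 6 libraries (3 per group). The authors deposited FPKM values for 54532 genes with coordinates, lengths and biotypes, 1 column per library. The submitters' processing notes name fastp, HISAT2 2.0.5, featureCounts 1.5.0-p3 and mm10, whereas the study's methods name LifeScope for alignment and counting, and use of strand is not stated. FPKM multiplied by gene length gave whole reads (100.0% of values under 200 reads within 0.1 of a whole number). The depth of 15776238 to 17924686 reads on genes is thus known, and counting error is large for members with few reads. The depth by which the FPKM had been scaled was above these reads in every cisplatin library and below them in every PBS library. In cisplatin replicate 1 it was 17008255 against 16396353, and in PBS replicate 1 it was 17698091 against 17924686. Limma voom, which used the recovered reads, gave a median log2 fold change of 0.085 over all genes tested, against -0.001 in the fit reported. The part of this offset in the changes was not tested further. Genes with FPKM of at least 1 in at least 3 libraries were tested (13441, including 255 lincRNAs and all 120 members). Values were taken as log2(FPKM + 1) and fitted in limma 3.58.1 (R 4.3.3; lmFit, eBayes with trend) with group as the only term, after a check on simulated data. Calls needed a Benjamini-Hochberg adjusted p under 0.05 and an absolute log2 fold change of at least 1. With 3 libraries against 3, an exact permutation test cannot go below 0.1 and was not used. Members, lists and tests were chosen with earlier results of these data known. Named were members of the lists by role, the 10 largest called rises and falls, the 5 most abundant members, the 2 lincRNAs on either side of the limit, and neighbours of these within 50 kb. Others are marked in the text. Alternatives were 18 planned settings and 1 added after seeing the data (a mean of at least 10 reads). Sequences came from RefSeq tables (GRCm38.p6) and GENCODE M21 transcripts. Mir17hg and Mir155hg had no promoter window near their start.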

Additional observations from a re-analysis of the deposited data

How the results depend on the processing

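No call among the 120 lincRNAs changed direction in any of the 19 settings, and 32 to 39 of the 39 calls remained in each that fitted all 120. Calls higher and lower numbered 3 and 12 with a filter at 5 FPKM, which fitted 43 members, 4 and 57 under scaling by the 4 Y-linked genes, and 30 and 51 by the adjusted p alone; limma voom on the recovered reads called 17 higher. Over all genes tested, voom called 1227 higher and a pseudocount of 0.1 called 973, scaling by the Y-linked genes 85 higher and 5181 lower, and the adjusted p alone 4424 and 4721. The median log2 fold change of the members was -0.2121 with the filter at 5 FPKM, -0.0087 with voom, 0.0465 (turned) under quantile normalisation, which moved the median of all genes to 0.10, and -0.9196 under scaling by the Y-linked genes. Leaving out each library gave 10 to 12 members higher and 27 to 29 lower, 622 to 671 and 1513 to 1531 of all genes, and a median of -0.0841 to -0.0613. Under scaling by the Y-linked genes the sign turned for Mir155hg (-0.7624), 2900097C17Rik (-0.8922), 1700020I14Rik (-0.693), Snhg20 (-0.4492), Gm14005 (-0.2937), Snhg12 (-0.1791), Snhg6 (-0.3394) and Epb41l4aos (-0.0288). Mir155hg also turned without cisplatin replicate 2, its range over the left-out libraries being -0.0063 to 0.1428, and so did 1810012K08Rik, at -0.0043 in the fit reported, with voom (0.0517), median-of-ratios scaling (0.0044), quantile normalisation (0.1426) and some left-out libraries (range -0.174 to 0.2564; 0.0197 without PBS replicate 1). Beyond these constructions the causes were not tested. Same-numbered libraries did not deviate together (correlations -0.104, -0.0857 and -0.0235), so they share only a number. A fit with the replicate block called 11 members higher and 28 lower, the same 39 lincRNAs, with 625 and 1515 over all genes and a member median of -0.0723. Members under 50 reads, 33 of the 120, are limited by counting error.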
